A study of Mus musculus with 58 samples.

Results

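Genes of fetal growth control, Hmga1, Hmga2, Lin28b, Igf2bp1, Igf2bp2 and Igf2bp3, were followed through the embryonic mouse pancreas. They are 6 of the 19699 gene rows in the deposited transcript table. They were chosen by their fall in summed transcript level between E12.5 and E18.5 in these same cells, so the fall itself is described here and not tested. The table comes from SORT-seq, which sorts single cells into 384-well plates and counts transcripts with molecular identifiers. Embryos were taken from pregnant females carrying MIP-GFP, a GFP reporter under the mouse insulin promoter, and were dissected singly before the pancreas was dispersed. The labels name a live sort, negative for a viability dye, and a GFP-positive sort, on 5 embryonic days from E12.5 to E18.5. All groups carry the reporter, and no treatment or mutation separates them. A title number such as EP11 names an experiment. The earliest stage, E12.5, had EP11 and EP18, and E15.5 had EP10 and EP17. The other stages rest on 1 experiment each, E13.5 on EP12, E14.5 on EP14 and E18.5 on EP16.

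Of 4310 retained cells, 3858 fell into 5 classes. These were 618 mesenchymal, 1405 epithelial, 564 glucagon, 999 insulin and 272 immune cells. Mesenchymal and immune cells were set by lists of marker genes, glucagon and insulin cells by the share of their transcripts in the hormone, and epithelial cells by at least 1 Epcam transcript outside the other classes. The mesenchyme list summed to between 7336 and 52940 CPM, the usual unit of counts scaled to a fixed total per sum, in mesenchymal cells, while the epithelium list there summed to at most 141.8 CPM. The epithelium list summed to between 2252 and 4324 CPM in epithelial cells. Transcripts were summed over the cells of each class in each experiment, and each such sum with at least 10 cells counted as 1 value. EP17 gave no mesenchymal or immune value, and EP11 and EP18 gave no insulin value.

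Experiments differed in depth. The median cell held 7488 transcripts in EP17 and 8156 in EP18, against 14426 to 23688 in the others. The titles of 12 libraries give another stage than their stage label. They are the MIP-GFP libraries of EP11, EP18 and EP16. The stage label was used, and values with the title's stage are given where they differ. Mesenchymal values came almost wholly from live plates, which are not affected. No label says which embryos or litters went into an experiment, so p-values measure the spread between experiments, which may be partly technical.

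Hmga1 and Hmga2 encode small chromatin proteins that bind the minor groove of AT-rich DNA and are abundant in growing embryonic tissue. Lin28b binds the precursors of let-7 microRNAs and blocks their maturation. The Igf2bp genes encode RNA-binding proteins that hold and stabilise fetal mRNAs, Igf2 among them. Mature let-7 in turn pairs with sites in the 3′ untranslated regions (UTRs) of Hmga2, Lin28b and Igf2bp mRNAs. Because this shared pairing links the members, the microRNAs and the matching sites are shown first. The mature forms are from RefSeq for GRCm38.p6, with the seed, bases 2 to 8, in capitals.
let-7a-5p: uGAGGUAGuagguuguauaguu
let-7b-5p: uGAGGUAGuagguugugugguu
let-7g-5p: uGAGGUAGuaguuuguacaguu
miR-98-5p: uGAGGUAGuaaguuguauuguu
let-7j: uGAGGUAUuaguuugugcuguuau
Of 11 family names in the table, 10 share the seed GAGGUAG, and let-7j has the seed GAGGUAU. MicroRNAs themselves were not measured in these libraries.

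The complement of the shared seed, CTACCTC, was searched on the sense strand of 3′ UTRs in the GENCODE M21 transcripts of GRCm38. It was present in 1878 of 20964 genes (8.96%) and in all 6 members. Hmga2 held 4 matches in a UTR of 3014 bases, Lin28b 4 in 4445 bases and Igf2bp1 4 in 6337 bases. Igf2bp2, Igf2bp3 and Hmga1 held 1 each, in 1784, 2119 and 1183 bases. The share of genes with a UTR within 10% of the same length that held as many matches was 0.0908% of 1101 genes for Hmga2, 0.333% of 601 for Lin28b and 0% of 242 for Igf2bp1. For Igf2bp2, Igf2bp3 and Hmga1 it was 11.3%, 14.2% and 8.29%. A match is a run of letters in the UTR and no measured binding site. The matches of Hmga2, the member with the steepest fall in mesenchymal cells, are printed with their GRCm38 coordinates on the minus strand of chromosome 10, together with 1 match of each other member. The match is in capitals.
Hmga2, chr10:120364222-120364242: acattcaatttCTACCTCagc
Hmga2, chr10:120362985-120363005: actcctcaataCTACCTCtga
Hmga2, chr10:120362547-120362567: tttgcaaggaaCTACCTCcac
Hmga2, chr10:120361689-120361709: aaaacacactaCTACCTCtta
Lin28b, chr10:45381020-45381040, minus strand: gggcgggaagtCTACCTCatg
Igf2bp1, chr11:95961776-95961796, minus strand: tgcgaagtaaaCTACCTCaag
Igf2bp2, chr16:22059471-22059491, minus strand: acaaataaaagCTACCTCagg
Igf2bp3, chr6:49086785-49086805, minus strand: tttttactcaaCTACCTCagg
Hmga1, chr17:27563281-27563301, plus strand: ctgttcacaaaCTACCTCtgg
The 4 Hmga2 matches begin 58, 1295, 1733 and 2591 bases into the UTR, so they are spread over its length. The genes with 4 matches do not all behave alike in the counts, as the levels that follow show.

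Hmga2 had the steepest slope of the 4 members fitted in mesenchymal cells, and its own slope was steepest there. Its mesenchymal level was 2666 CPM in EP11 and 1851 in EP18, 726.1 at E13.5 and 184.7 a day later. It was 101.2 CPM in EP10 at E15.5 and 1.542 CPM at E18.5. Every later stage lay below every earlier stage. At E18.5 the value rested on 2 transcripts in 2 of 114 cells, with a 95% Poisson interval of 0.187 to 5.57 CPM. Against the E12.5 mean of 2258 CPM this was 1464-fold lower, with an interval of 405.5- to 12090-fold. Intervals of this kind cover counting error only. The fitted slope was -1.62 ± 0.103 log2 units per day (SE, 6 experiments), and leaving out EP16 gave -1.54.

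Epithelial cells lost Hmga2 more slowly and kept some at E18.5. Their levels were 1004 and 933.3 CPM in EP11 and EP18, 489.5 in EP12, 293.8 in EP14, 230.3 and 290.6 in EP10 and EP17, and 85.41 at E18.5. The E18.5 level was 11.34 times lower than the E12.5 mean, and the slope was -0.59 ± 0.0798 log2 units per day (SE, 7 experiments). Both E15.5 values stood close to the E14.5 value, and EP17 was about level with it.

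Hormone cells had little Hmga2 at any stage. Glucagon cells held 22.18 and 76.7 CPM at E12.5 (EP11, EP18), 47.29 in EP12, 55.06 in EP14, 55.1 and 41.66 in EP10 and EP17 and 3.886 at E18.5. The last value is 1 transcript in 15 cells, and its ratio to the E12.5 mean, 12.72-fold lower, has a counting interval of 2.284 to 502.4. From E12.5 to E15.5 the glucagon values show no order by stage, and the 2 experiments of E12.5 bracket all of them. In EP18 the value includes 11 live-sorted cells at 565.0 CPM (51 transcripts), while its MIP-GFP cells held 39.98 CPM. The slope was -0.17 ± 0.152 log2 units per day. It was 0.05 without EP16, 0.29 ± 0.141 over MIP-GFP plates alone and -1.09 ± 0.231 with the stages of the titles, so its direction was not settled. Insulin cells held 24.59 CPM in EP12, 20.66 in EP14, 23.93 and 15.55 in EP10 and EP17 and 5.484 at E18.5. The E18.5 value was 4.484 times lower than E13.5, and the slope of -0.39 ± 0.102 became -0.03 without EP16. Among insulin cells the fall thus lay between E15.5 and E18.5.

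Immune cells were low throughout. Their Hmga2 levels were 25.61 CPM in EP11, 51.52 in EP18, 6.989 in EP12, 12.77 in EP14, 39.01 in EP10 and 36.67 at E18.5. The E18.5 value was 8 transcripts in 2 cells, 7 of them in 1 cell. The slope was 0.02 ± 0.189 log2 units per day. It was -0.99 ± 0.528 over MIP-GFP plates alone and 0.48 ± 0.195 without the plates whose titles give another stage, so its direction was not settled.

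**Figure D1:**
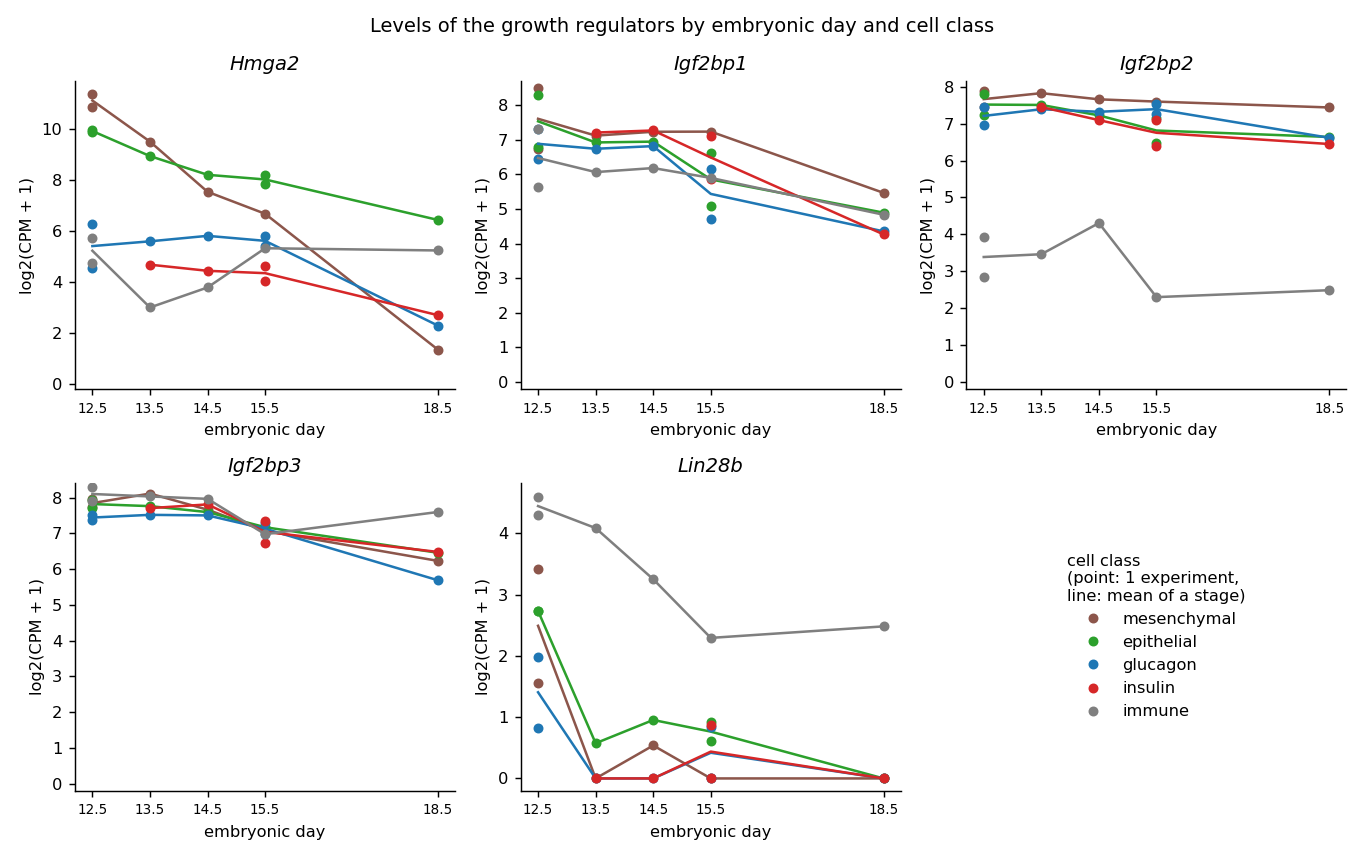
Level of Hmga2, Igf2bp1, Igf2bp2, Igf2bp3 and Lin28b on the log2(CPM + 1) scale against embryonic day, 1 point for each experiment and cell class with at least 10 cells, lines through the mean of a stage. Mesenchymal Hmga2 runs from 2666 CPM at E12.5 to 1.542 CPM at E18.5, while mesenchymal Igf2bp2 stays between 172.7 and 234.3 CPM.

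In single cells the mesenchymal fall showed in the share of cells with a transcript and in the median cell. Each stage holds different cells, so no cell was followed. A transcript of Hmga2 was counted in 100% of mesenchymal cells of EP11, 95.65% of EP18, 97.1% of EP12, 75.63% of EP14, 62.16% of EP10 and 1.754% at E18.5. After each cell was thinned to 2000 transcripts the shares were 97.69%, 84.06%, 53.62%, 19.33%, 20.91% and 0.8772%. The thinned share did not fall from EP14 to EP10. Cells spread widely there, with quartiles of 35.61 and 291.0 CPM in EP14 and 0 and 217.0 in EP10. The median mesenchymal cell held 2513, 1563, 507.5, 110.7, 56.51 and 0 CPM in the same order of experiments. At E18.5 the typical mesenchymal cell therefore had no counted transcript.

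Among epithelial cells, 84.88% of EP11 and 88.89% of EP18 had an Hmga2 transcript, and 53.76% still had one at E18.5. Thinned, these shares were 70.73%, 70.37% and 10.75%. The median epithelial cell held 1070 and 908.2 CPM at E12.5, 223.6 in EP12, 132.1 in EP14, 107.5 and 191.2 at E15.5 and 55.18 at the end. The median fell faster than the sum between E12.5 and E13.5. Over the same step the share of endocrine precursors among epithelial cells was 25.37% in EP11, 4.63% in EP18 and 58.65% in EP12. The part of this mixture in the fall was not tested, and the levels of both kinds of cell are given with the endocrine precursors.

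**Figure D2:**
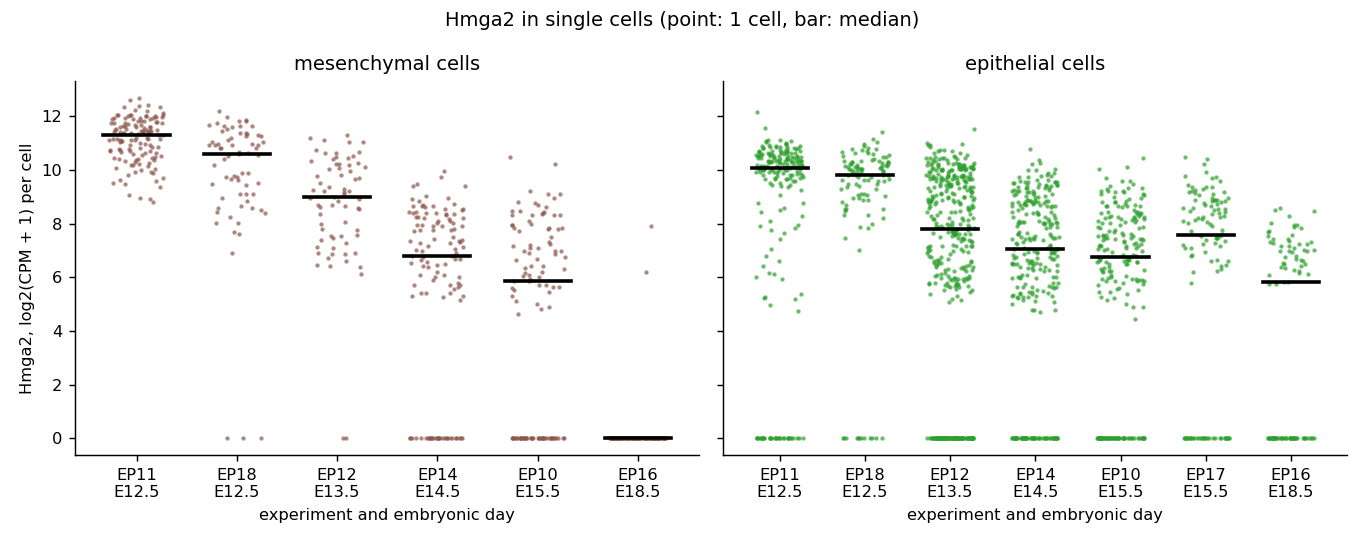
Hmga2 in each mesenchymal and epithelial cell (points) on the log2(CPM + 1) scale, by experiment in stage order, with a bar at the median. The median mesenchymal cell goes from 2513 CPM in EP11 to 0 at E18.5, while 53.76% of epithelial cells still have a transcript at E18.5.

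Igf2bp1, the family member best known for binding and protecting Myc and Igf2 mRNAs, was lower at E18.5 than at the first stage in all 5 classes, less steeply than mesenchymal Hmga2. Mesenchymal levels were 356.7 and 104.7 CPM at E12.5 (EP11, EP18), 137.8 in EP12, 149.0 in EP14, 149.4 in EP10 and 43.16 at E18.5. The 2 values of E12.5 lie above and below all values up to E15.5, and only E18.5 stands apart. In every class with both, the shallow experiment had less Igf2bp1 than the deep experiment of its stage. The mesenchymal slope was -0.33 ± 0.106 log2 units per day, and -0.40 ± 0.0847 without EP17 and EP18. It was -0.20 without EP11 and -0.21 without EP16.

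In epithelial cells Igf2bp1 went from 311.1 and 108.5 CPM at E12.5 through 120.1, 122.1, 97.16 and 32.99 to 28.7 CPM at E18.5. The epithelial slope was -0.49 ± 0.1 log2 units per day. Glucagon cells went from 158.6 and 85.99 CPM through 105.7, 111.5, 70.85 and 24.99 to 19.43 CPM, with a slope of -0.39 ± 0.0936 that became 0.03 ± 0.208 with the stages of the titles. Insulin cells had 146.6 CPM in EP12, 152.9 in EP14, 136.3 and 57.52 in EP10 and EP17 and 18.22 at E18.5, with a slope of -0.59 ± 0.115 that became -0.23 without EP16. The insulin level at E18.5 was 8.046 times lower than at E13.5, against 5.345 times from E12.5 in mesenchymal, 7.31 in epithelial, 6.294 in glucagon and 3.745 in immune cells. The insulin start is 1 experiment, and the others are the mean of EP11 and EP18, which differ. From EP11 alone the level was 8.26 times lower in mesenchymal, 10.8 in epithelial, 8.16 in glucagon and 5.72 in immune cells. From EP18 alone it was 2.43, 3.78, 4.43 and 1.77 times lower, so the classes are not ranked by this fall. Immune cells held 157.3, 48.66, 65.89, 71.53, 58.52 and 27.5 CPM, with a slope of -0.27 ± 0.114.

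Igf2bp2, the member that remains expressed in adult tissues, hardly moved in mesenchymal cells. It stood there at 234.3, 174.5, 226.3, 201.4, 193.0 and 172.7 CPM, 1.184 times lower at E18.5 than at E12.5, with a slope of -0.02 ± 0.053 log2 units per day. Epithelial cells went from 223.7 and 148.7 CPM through 181.1, 148.6, 140.9 and 88.26 to 98.71 CPM. Glucagon cells stayed between 124.0 and 183.3 CPM up to E15.5 and had 97.16 at E18.5, while insulin cells went from 174.1 to 86.34 CPM. The slopes were -0.18 ± 0.0511, -0.06 ± 0.0574 and -0.12 ± 0.0579 in these 3 classes. In immune cells Igf2bp2 was near the limit of counting, at 3.901 to 18.74 CPM.

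Igf2bp3, best known as an oncofetal protein that returns in tumours, held its level up to E13.5 and was lower at E18.5 in the epithelium, the mesenchyme and both hormone classes. Mesenchymal cells held 248.2, 211.3, 275.6, 201.4, 133.3 and 73.99 CPM, 3.105 times lower at the end than at E12.5. Epithelial cells held 244.4 and 206.6 at E12.5, 215.8, 192.1, 141.6 and 144.4 between, and 86.81 CPM at E18.5. The slopes were -0.26 ± 0.0624 and -0.24 ± 0.0517 log2 units per day. The E13.5 value was above both E12.5 values in the mesenchyme and between them in the epithelium, and E18.5 was below all others in both.

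Glucagon cells held between 125.0 and 182.1 CPM of Igf2bp3 up to E15.5 and 50.52 at E18.5. Insulin cells went from 207.5 and 223.2 CPM at E13.5 and E14.5 to 162.5, 104.9 and 88.2 CPM. Immune cells had 310.9, 240.4, 260.6, 248.7, 124.8 and 192.5 CPM and kept the most at E18.5, only 1.432 times lower than at E12.5. The last 2 immune values rest on 32 and 42 transcripts in 16 and 27 cells. Col3a1, a mesenchyme marker, was counted in 81.25% and 70.37% of those cells, against 2.564% to 35.71% in the earlier experiments. In insulin cells the hormone's own share of transcripts went from 2.712% at E13.5 to 16.74% at E18.5, which lowers the CPM of every other gene. The fitted slopes are scaled for this.

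Lin28b was rare, and it was found mainly at E12.5 and in immune cells. Immune cells held 23.17 CPM in EP11 (19 transcripts), 18.6 in EP18 (13 transcripts), 15.97 in EP12, 8.516 in EP14, 3.901 in EP10 and 4.583 at E18.5, the last 2 with 1 transcript each. Its slope there was -0.50 ± 0.167 log2 units per day, with a range of -0.68 (without EP16) to -0.13 (stages of the titles) over the alternatives. Mesenchymal cells held 9.743 CPM in EP11, 1.939 in EP18 and at most 0.4516 later. Epithelial cells held 5.666 and 5.627 CPM at E12.5 (31 and 7 transcripts) and at most 0.9369 from E13.5 on, with a slope of -1.12 ± 0.282.

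Immune cells had more Lin28b than mesenchymal cells in 6 of 6 experiments. The gene did not pass the filter on low counts in that comparison, so the difference carries no test. Glucagon cells had 2.957 CPM in EP11 (22 transcripts), and insulin cells had 3 transcripts in all. Its paralog Lin28a, which also blocks let-7 maturation, was highest in glucagon cells of E12.5, at 7.124 CPM in EP11 and 10.85 in EP18, and in epithelial cells of EP11, at 7.128 CPM.

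Hmga1 could not be followed. Its row held 0 to 1.4 CPM in the 5 classes apart from 4.583 CPM in immune cells of E18.5, which is 1 transcript. How reads that fit more than 1 place in the genome were counted is not given in the sources used here, so these low values are uncertain and are not read as absence.

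Each class had 4 members at 20 CPM or more at its first or last stage. Of these, 2 were at least 4-fold lower at E18.5 on the log2(CPM + 1) scale in mesenchymal, 2 in epithelial and 2 in glucagon cells, Hmga2 and Igf2bp1 each time. In insulin cells 1 was, Igf2bp1, and in immune cells 0. Over all genes at that level the share was 3.05% in mesenchymal, 1.56% in epithelial, 3.41% in glucagon, 0.955% in insulin and 3.68% in immune cells. The group was chosen for this fall, so nothing is read from the comparison. Hmga2 in insulin cells and Lin28b in immune cells lay just outside, at -1.98 and -1.97, and Igf2bp1 in mesenchymal cells just inside, at -2.39. The Igf2bp1 falls in mesenchymal and epithelial cells pass 4-fold by way of EP11 (-3.02 and -3.39), not from EP18 alone (-1.26 and -1.88). In immune cells the Igf2bp1 change was -2.47 from EP11 and -0.80 from EP18.

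Differences between classes within an experiment were not the rule of the choice and were tested. The test was edgeR's quasi-likelihood test on the sums, with the experiment as a block and Benjamini-Hochberg adjustment over all genes. Members and class gates were set with these data known, so the p-values are not independent of those choices. Hmga1 and Lin28b did not pass the filter on low counts in these fits, which leaves 4 members. Between epithelial and mesenchymal cells 2 of the 4 were lower in the epithelium, where 25.1% of 10973 genes were lower and 50.5% were called in either direction. Igf2bp2 was lower in 6 of 6 experiments, at 157 ± 42 against 200 ± 25.7 CPM (SD, n = 6), with a log2 difference of -0.50 ± 0.128 (edgeR adjusted p = 0.01). Igf2bp1 was lower in 5 of 6 (-0.41 ± 0.127, edgeR adjusted p = 0.0229), a call that was lost without the low-count filter (adjusted p = 0.0517) and on live plates alone (0.0677). Leaving out EP10, EP12 or EP14 ended the call as well.

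Hmga2 showed no overall difference between these classes (0.08 ± 0.551, edgeR adjusted p = 0.919), and its sign turned over with stage. The epithelial minus mesenchymal difference on the log2(CPM + 1) scale was -1.41 and -0.99 in EP11 and EP18, -0.57 in EP12, 0.67 in EP14, 1.18 in EP10 and 5.09 at E18.5. In these sums mesenchymal cells were the higher class up to E13.5, and epithelial cells from E14.5 on. The epithelial sums pool both sorts, while mesenchymal values came almost wholly from live plates. Live epithelial cells alone, given with the sorts below, already stood slightly above mesenchymal cells in EP12.

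Both hormone classes had far less Hmga2 than epithelial cells. In glucagon cells it was lower in 7 of 7 experiments, at 43.1 ± 23.8 against 475 ± 358 CPM (SD, n = 7), with a log2 difference of -3.42 ± 0.365 (edgeR adjusted p = 1.06e-05). In insulin cells it was lower in 5 of 5, at 18 ± 7.88 against 278 ± 145 CPM (SD, n = 5), with a difference of -3.79 ± 0.176 (edgeR adjusted p = 7.85e-07). The background shares of called genes were 50.2% and 49.9%. The sizes move with the sort, and before E18.5 most hormone cells came from MIP-GFP plates, while epithelial cells came from both. Over MIP-GFP plates alone the differences were -0.72 ± 0.126 (edgeR adjusted p = 0.00166) for glucagon cells and -2.03 ± 0.132 (1.25e-08) for insulin cells.

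The Igf2bp genes differed little between hormone and epithelial cells. Glucagon cells had less Igf2bp1 in 7 of 7 experiments (-0.47 ± 0.128, edgeR adjusted p = 0.00883), a call lost over MIP-GFP plates alone (-0.28, adjusted p = 0.0902). Their Igf2bp3 difference of -0.29 ± 0.112 (edgeR adjusted p = 0.0474) was 0.11 ± 0.0852 over MIP-GFP plates (0.439), so its direction depends on the sort. The call held in 6 of 19 alternatives. Insulin cells had no called Igf2bp difference, with Igf2bp1 at 0.34 ± 0.144 (edgeR adjusted p = 0.0791). Over MIP-GFP plates, insulin cells were higher in Igf2bp1 by 0.53 ± 0.104 (edgeR adjusted p = 0.001) and in Igf2bp3 by 0.43 ± 0.0895 (0.00186). With no replicate block these 2 differences were -0.18 (edgeR adjusted p = 0.81) and -0.14 (0.691). In Igf2bp2 glucagon cells differed from epithelial cells by -0.01 ± 0.135 (edgeR adjusted p = 0.971), and insulin cells by -0.02 ± 0.0981 (0.855).

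Directly compared, glucagon cells had more Hmga2 than insulin cells and less Igf2bp1. These were 2 of the 4 members, where 32.6% of 9558 genes were called. Hmga2 was higher in 4 of 5 experiments (1.09 ± 0.19, edgeR adjusted p = 0.000187), all but E18.5, where glucagon cells had 1 transcript. Igf2bp1 was lower in 4 of 5 (-0.70 ± 0.125, edgeR adjusted p = 0.000228). Igf2bp3 stayed short of the threshold (-0.28 ± 0.107, edgeR adjusted p = 0.0535).

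Igf2bp2 was far lower in immune than in mesenchymal cells. Immune cells held 9.6 ± 5.93 against 200 ± 25.7 CPM (SD, n = 6), lower in 6 of 6 experiments, with a log2 difference of -4.07 ± 0.283 (edgeR adjusted p = 2.17e-07). Igf2bp1 was also lower in 6 of 6 (-0.95 ± 0.149, edgeR adjusted p = 0.000202). Hmga2 was lower in 5 of 6 (-4.33 ± 0.991, edgeR adjusted p = 0.00309), with E18.5 the other way, and this call was lost on live plates alone (-2.08, 0.0816) and without the plates whose titles give another stage (-3.15, 0.0725). Igf2bp3 was the member that immune cells had at mesenchymal levels or above, 230 ± 63.9 against 191 ± 74.8 CPM (0.45 ± 0.179, edgeR adjusted p = 0.052). So 3 of 4 members were lower, against 25.4% of 9210 genes, and 50.7% were called in either direction.

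**Figure D3:**
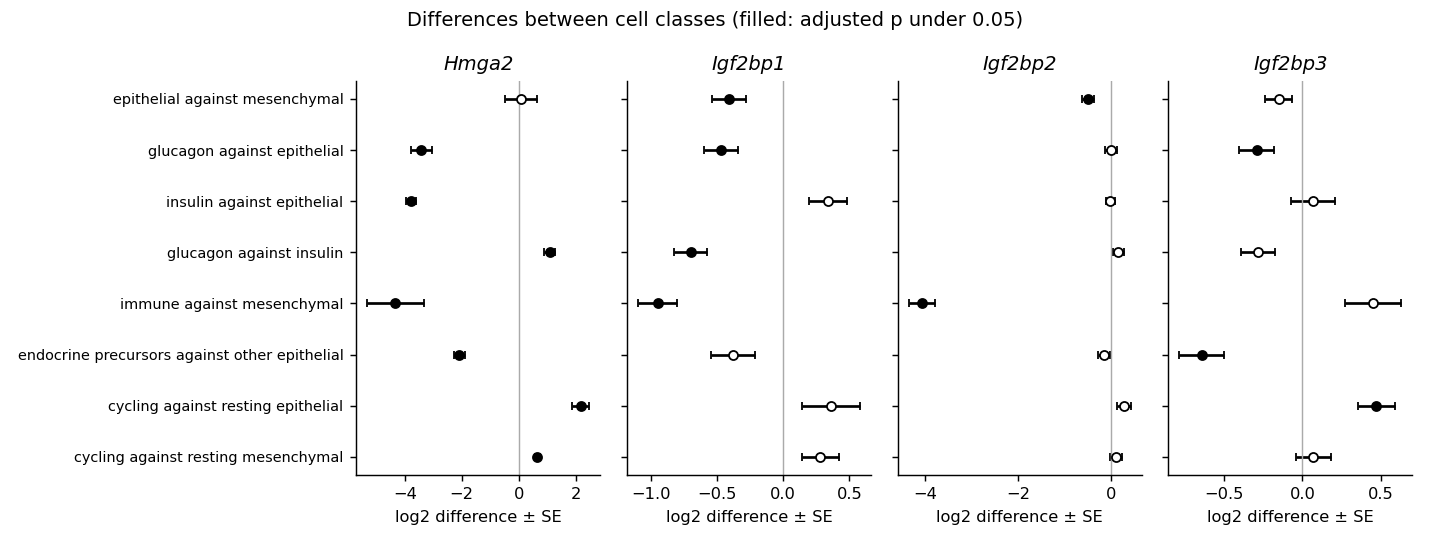
Fitted log2 difference between 2 classes with its SE for Hmga2, Igf2bp1, Igf2bp2 and Igf2bp3 in 8 comparisons, filled where edgeR's adjusted p is under 0.05, each panel with its own axis range. Hmga2 in hormone cells against epithelial cells (-3.42 and -3.79) and Igf2bp2 in immune against mesenchymal cells (-4.07) lie far from 0, and most Igf2bp differences lie within 1 unit of it.

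Within the epithelium, Hmga2 followed the kind of cell and the sort. Epithelial cells from MIP-GFP plates had less of it than those from live plates in 6 of 6 experiments that had both. Live epithelial cells held 1280 and 997.9 CPM at E12.5 (EP11, EP18), 772.5 in EP12, 461.9 in EP14, 309.1 and 347.3 in EP10 and EP17 and 93.8 at E18.5. Those of the MIP-GFP plates held 24.9 CPM in EP11, 91.73 in EP12, 93.78 in EP14, 99.85 and 51.24 in EP10 and EP17 and 23.47 at E18.5. The stage slope was -0.62 ± 0.0731 log2 units per day in the live cells and 0.04 ± 0.164 in the GFP-positive cells. By the stage labels, the epithelial Hmga2 fall was thus seen in the live sort and not in the GFP-positive sort. The GFP-positive slope takes its first and last stage from EP11 and EP16, whose MIP-GFP titles give other stages. Igf2bp1 fell by 0.49 ± 0.104 log2 units per day in the live cells and by 0.59 ± 0.111 in the GFP-positive cells. Igf2bp3 was lower on the MIP-GFP side in 6 of 6 experiments too, but by little, at 70.4 to 195.9 against 89.03 to 258.1 CPM.

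Endocrine precursors are epithelial cells on the way to hormone cells, taken here as those with at least 2 transcripts of Neurog3, the master regulator of endocrine fate, or of Fev, which follows it. The other epithelial cells had no transcript of either gene, and 143 epithelial cells in between were in neither group. Precursors had less Hmga2 than the other epithelial cells in 6 of 6 experiments. The pairs were 247.3 and 1256 CPM in EP11, 182.6 and 805.1 in EP12, 157.1 and 479.9 in EP14, 158.3 and 323.2 in EP10, 92.21 and 307.8 in EP17, and 18.24 and 113.6 at E18.5. The log2 difference was -2.08 ± 0.181 (edgeR adjusted p = 1.29e-06), in a comparison where 54.4% of 10733 genes were called. Among live plates alone it was -0.95 ± 0.205 (edgeR adjusted p = 0.00671), and MIP-GFP plates alone could not be fitted. Precursors and other epithelial cells each had their highest Hmga2 level at E12.5 and their lowest at E18.5.

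Of the other members, Igf2bp3 was lower in precursors in 6 of 6 experiments, at 138 ± 47.4 against 189 ± 68 CPM (SD, n = 6; -0.64 ± 0.142, edgeR adjusted p = 0.00202). Igf2bp1 (-0.38 ± 0.165, 0.0668) and Igf2bp2 (-0.16 ± 0.127, 0.312) were not called by edgeR's adjusted p. Here the scaling adds to the size, because the median gene was 0.18 log2 units higher in precursors in plain CPM and is set to about 0 by the fit.

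Precursors of the 2 sorts differed as well, so sort and precursor state are not the same split. Live precursors held 777.2 CPM of Hmga2 in EP11, 473.4 in EP12, 349.2 in EP14 and 268.1 in EP10. Precursors of the MIP-GFP plates in those experiments held 25.55, 94.71, 89.1 and 102.8 CPM, lower in 4 of 4. By the stage labels, the live values fall with stage and the GFP-positive values do not.

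**Figure D4:**
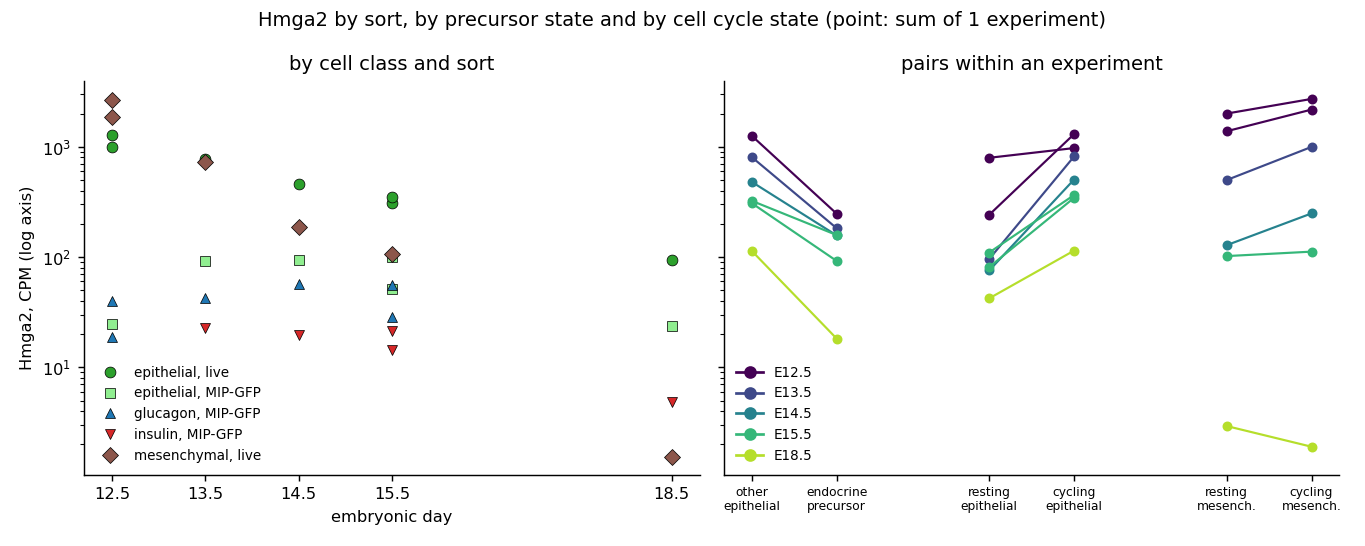
Hmga2 in CPM (log axis), 1 point for each experiment. The left panel plots it against embryonic day by class and sort, and the right panel joins, within an experiment, other epithelial cells to endocrine precursors and resting to cycling cells. Live epithelial cells lie between 93.8 and 1280 CPM, MIP-GFP epithelial cells between 23.47 and 99.85 CPM, and each precursor point is below its partner.

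Cells were also ranked within each experiment by the share of their transcripts in a list of 30 cell cycle genes, and those above the 66.7th percentile were called cycling and those below the 33.3rd resting. These are ranges of a score, not cell types. Cycling epithelial cells had more Hmga2 in 7 of 7 experiments, at 631 ± 416 against 206 ± 267 CPM (SD, n = 7), with a log2 difference of 2.18 ± 0.302 (edgeR adjusted p = 0.000128). The background was 55.5% of 10022 genes. The pairs ran from 1301 and 241.6 CPM in EP11, and 972.3 and 793.7 in EP18, to 114.3 and 42.22 at E18.5. Within 1 sort the difference was smaller, 0.64 ± 0.155 on live plates (edgeR adjusted p = 0.00522) and 0.65 ± 0.179 on MIP-GFP plates (0.0301). Without endocrine precursors it was 0.36 ± 0.0988 (edgeR adjusted p = 0.00996), the lowest value of the 21 alternatives. That setting left out every epithelial cell with any Neurog3 or Fev transcript.

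Igf2bp3 was higher in cycling epithelial cells in 6 of 7 experiments (0.47 ± 0.118, edgeR adjusted p = 0.00546). It was -0.003 over MIP-GFP plates (adjusted p = 0.994) and 0.25 without endocrine precursors (0.0656), so the call was lost in both. Igf2bp1 (edgeR adjusted p = 0.188) and Igf2bp2 (0.133) were not called. In mesenchymal cells, where 10.3% of 7873 genes were higher and 16.7% were called in either direction, only Hmga2 of the 4 was, higher in the cycling cells in 5 of 6 experiments (0.66 ± 0.0998, edgeR adjusted p = 1.21e-05). The mesenchymal pairs were 2712 and 1998 CPM in EP11, 2171 and 1382 in EP18, 996 and 498.9 in EP12, 248.5 and 128.1 in EP14, 111.9 and 102 in EP10, and 1.907 and 2.935 at E18.5. In both ranges Hmga2 was highest at E12.5 and lowest at E18.5. The ranges are set within each experiment, so they are not the same state at each stage. The median mesenchymal cell had 0.2486% of transcripts in the cell cycle list in EP11, 0.3502% in EP18 and 0.09621% at E18.5. Whether cycling bears on the Hmga2 fall was not tested.

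The wider pathways were counted from lists of known genes. Genes that process or are bound by Lin28 and let-7, such as Dicer1, Drosha and the Argonaute genes, had 0 calls for a stage slope in all 5 classes, with 14 to 20 tested. Over all genes a slope was called for 5.41% in mesenchymal, 2.13% in epithelial, 2.67% in glucagon, 5.49% in insulin and 2.35% in immune cells. Other reported let-7 targets mostly did not pass either. In mesenchymal cells 3 of 25 fell and 1 rose (median slope -0.12, against -0.01 for all genes). They were led by the growth regulator Mycn at -1.35 ± 0.18 log2 units per day (edgeR adjusted p = 0.0036) and by Arid3a at -0.52 ± 0.125 (0.0436). In epithelial cells 1 of 28 fell, Arid3a at -0.37 ± 0.0594 (edgeR adjusted p = 0.0152). All 3 of these calls were lost without EP16, the only E18.5 experiment (edgeR adjusted p = 0.0589 for Mycn, and 0.336 and 0.146 for mesenchymal and epithelial Arid3a). In insulin cells 2 of 23 targets rose and 1 fell, in glucagon cells 1 of 22 rose and in immune cells 1 of 21.

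Igf2, the fetal growth factor whose mRNA the Igf2bp proteins bind, took separate courses in the tissue layers. Mesenchymal cells held 4866 and 1731 CPM at E12.5, 5706, 5667 and 6269 up to EP10, and 6308 at E18.5, with no fall. Epithelial cells went from 1866 and 734.0 CPM through 776.6, 626.2, 667.9 and 307.6 to 109.2 CPM. The epithelial slope was -0.56 ± 0.104 (edgeR adjusted p = 0.0277) and that in glucagon cells -0.40 ± 0.0696 (0.0118). The epithelial call was lost without EP16 (adjusted p = 0.282).

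Of the insulin-like growth factor list, Igfbp7, which encodes a secreted binding protein, rose with stage in mesenchymal (1.11 ± 0.075 log2 units per day, edgeR adjusted p = 9.39e-05), epithelial (0.59, 0.00546), glucagon (0.29, 0.0231) and insulin cells (0.49, 0.00171). Without EP16 the mesenchymal call held (edgeR adjusted p = 0.0327), and those in epithelial (0.308), glucagon (0.333) and insulin cells (0.487) were lost. Calls by list were otherwise few, 2 of 17 rising in mesenchymal cells, and 1 of 19 rising and 2 falling in epithelial cells. Of the other high mobility group genes only Hmgb3 fell in mesenchymal cells, at -0.46 ± 0.061 (edgeR adjusted p = 0.00349, 0.119 without EP16), 1 of 11. Of fetal growth and imprinted genes, 4 of 20 fell in epithelial and 3 of 18 in glucagon cells, with 0 rising. In insulin cells 2 of 18 fell and 2 rose, in mesenchymal cells 1 of 19 fell and 2 rose, and in immune cells 1 of 14 fell and 3 rose. Sox11 fell in epithelial cells (-0.88, edgeR adjusted p = 0.000803, 0.0192 without EP16). Mdk, a secreted growth factor, fell in epithelial (-0.50, edgeR adjusted p = 0.00757), glucagon (-0.87, 0.000156) and insulin cells (-0.84, 0.00441). Without EP16 the glucagon call held (edgeR adjusted p = 0.00926), and the epithelial (0.0736) and insulin calls (0.732) were lost. Among reported Igf2bp targets, Cd44, an adhesion receptor, rose in mesenchymal cells by 1.13 ± 0.0691 (edgeR adjusted p = 7.72e-05, 0.146 without EP16), and Fscn1, an actin bundler, fell in epithelial cells by 0.72 (0.0122, 0.0242 without EP16).

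Between classes more genes of these lists were called than for stage, as were more of all genes. Between epithelial and mesenchymal cells 50.5% of all genes were called, 25.1% lower in the epithelium. Between immune and mesenchymal cells 50.7% were called, 25.4% lower in immune cells. The insulin-like growth factor list was lower in epithelial than in mesenchymal cells for 11 of 16 genes and higher for 0, with a median of -2.03 against -0.01 for all genes. Igfbp3 (-6.78 ± 0.354) and the protease gene Htra1 (-6.70) led it. Of the fetal growth list 13 of 19 were lower, among them Plagl1 (-5.08), Cdkn1c (-3.58) and Mest (-3.25), and 2 higher, Sall4 (4.90) and Cited1 (3.45). Against mesenchymal cells, immune cells were lower for 10 of 13 and 15 of 17 genes of the 2 lists, with medians of -4.99 and -4.75, against -0.04 for all genes.

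Beside the lower Hmga2 of hormone cells and precursors, cell cycle genes were lower too, and whether one bears on the other was not tested. In glucagon and in insulin cells 30 of 30 cell cycle genes were lower than in epithelial cells, with medians of -3.82 and -3.81, and in precursors 30 of 30 were lower than in other epithelial cells, with a median of -2.57. In the same 3 comparisons the high mobility group genes Hmgb2 (-2.64, -3.17 and -2.14) and Hmgb3 were lower, 5, 5 and 6 of 11 in all. The let-7 targets had 12 of 25, 9 of 26 and 11 of 27 lower, led by Mycn (-4.41, -4.72 and -2.35), and 3, 4 and 6 higher. Over all genes 2551 of 10077, 2885 of 11124 and 3084 of 10733 were lower in the 3 comparisons, and 2503, 2670 and 2753 higher. Igf2 differed by -2.74, -2.40 and -2.08, all called by edgeR. Under the alternatives run for glucagon cells these values came as close to 0 as -0.56 for Hmgb2 and -0.91 for Igf2, and each stayed called in all of them that tested it. In cycling against resting cells 7 of 11 high mobility group genes were higher in the epithelium, and 7 of 11 in the mesenchyme, led by Hmgb2 (3.61 and 3.09). Over all genes 2858 of 10022 were higher in cycling epithelial and 809 of 7873 in cycling mesenchymal cells.

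Genes with the most similar pattern were sought over the 31 sums of experiment and class among 8058 genes with a mean of at least 20 CPM, by Pearson correlation of log2(CPM + 1). For Hmga2 they were Asf1a (0.90), Fubp1 (0.86), Nasp (0.86), Gtpbp10 (0.85) and Cdk4 (0.85). Asf1a and Nasp encode histone chaperones, and Cdk4 a kinase of the cell cycle. For Igf2bp1 they were Set (0.84), Bclaf1 (0.83), Dcakd, Zfp871 and Setd2 (0.81 each). For Lin28b they were Ccdc50 (0.86), Myo5a (0.84), Snx5 (0.84), Samhd1 (0.83) and Zfand5 (0.83). The 31 sums share experiments and depth, so these values only describe likeness. Lin28b had few or no transcripts in most of the sums, so its list rests on low counts.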

How the data were processed

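The authors deposited expected counts, which estimate the transcripts of each gene in each well from molecular identifiers. BWA, Seurat and mm10 are named without versions in the submitters' processing notes. Wells were matched to 15 plates by plate name (5760 wells), and 1536 other columns were not used. Cells had at least 2000 transcripts and 500 genes, and 8 wells with over 5 times the median of the plate were dropped, as they may hold more than 1 cell. Hormone cells had at least 1% of transcripts in the hormone and 3 times any other hormone. Immune cells had at least 0.4% in immune markers with 3 detected. Mesenchymal cells had 0.4% with 4 detected, no Epcam and fewer than 3 mesothelium markers. These gates were set after seeing the data. The members and lists were chosen with earlier results of these data known.

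Counts were rounded, summed per experiment and class (at least 10 cells), and fitted with edgeR 4.0.16 in R 4.3.3 (TMM scaling, filterByExpr, quasi-likelihood test, Benjamini-Hochberg, threshold 0.05). DESeq2 1.42.0 was an alternative. The experiment, given in the titles, is the block, since both classes of a pair come from the same experiment, though often from plates of different sorts. Stage slopes use embryonic day as a number. Scaling moved the median of all genes by at most 0.18 log2 units. The scripts were tested on simulated data. Genes are named from those that a rule gives. The rule takes the 6 members, up to 4 called genes per list and direction by size, and the 5 genes most like a member. From the lists the text names only some of these genes, not always the largest.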

Additional observations from a re-analysis of the deposited data

Results flagged for a closer look

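In 6 of 32 sets of per-experiment differences, 1 experiment stood apart from the others by Dixon's test, which flags about 1 in 20 by chance. All values are log2(CPM + 1) differences. EP17, a shallow experiment, was highest for Igf2bp2 in glucagon against epithelial cells (1.05), in glucagon against insulin cells (1.13) and in cycling against resting epithelial cells (0.86). EP16, the E18.5 experiment, was lowest for Hmga2 in glucagon against insulin cells (-0.41) and for Igf2bp1 in endocrine precursors against other epithelial cells (-1.73). It was highest for Igf2bp3 in immune against mesenchymal cells (1.37). The glucagon value of EP16 rests on 1 Hmga2 transcript.

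Some differences had the opposite sign at E18.5 to both E12.5 experiments, and this change with stage was not tested. Epithelial minus mesenchymal Hmga2 reached 5.09 at E18.5, and Igf2bp3 in the same comparison 0.23. Cycling minus resting mesenchymal Igf2bp1 was -0.12 at E18.5. On few transcripts, immune minus mesenchymal Hmga2 turned as well, at 36.67 against 1.542 CPM at E18.5 (8 and 2 transcripts). So did cycling minus resting mesenchymal Hmga2, at 1.907 against 2.935 CPM (1 transcript each).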

How the results depend on the processing

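Counts of called genes are for edgeR's adjusted p under 0.05 unless a tool is named. Glucagon against epithelial cells (5054) gave 3285 with the cells the authors kept and 1574 on MIP-GFP plates. Insulin against epithelial cells (5555) gave 2425 on live and 2858 on MIP-GFP plates. On live plates immune against mesenchymal cells (4665) gave 2954 and precursors against other epithelial cells (5837) gave 3220. Cycling against resting epithelial cells (5562) gave 3293 on live plates, 678 on MIP-GFP plates and 2195 without endocrine precursors. In mesenchymal cells the same contrast (1318) gave 720 with DESeq2 and 841 with the mesenchymal gate doubled.

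The experiment was the replicate block. With no replicate block, cycling against resting mesenchymal cells gave 318 calls, and the mesenchymal Hmga2 difference lost its call (edgeR adjusted p = 0.937). The block also carried the calls of Igf2bp1 in epithelial against mesenchymal (0.482), glucagon against epithelial (0.463), glucagon against insulin (0.764) and immune against mesenchymal cells (0.0757), and of Igf2bp3 in cycling epithelial cells (0.146).

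Stage slopes were the least stable. Mesenchymal slopes (585) gave 900 with DESeq2 and 1031 with no low-count filter. Epithelial slopes (276) gave 716 with DESeq2, 5 with the stages of the titles, 42 with the cells the authors kept, 164 without plates whose title gives another stage and 166 on MIP-GFP plates. Glucagon slopes (281) gave 510, 1001 without the filter, 0 with the titles (354 at an unadjusted p under 0.05), 6 and 85 on MIP-GFP plates. Insulin slopes (573) gave 1017 without the filter, 1112 without the shallow EP17 and EP18, and 0 with the titles (428 unadjusted). Immune slopes (205) gave 418 with DESeq2, 609 without the filter, 3 with the titles, 2 without the conflicting plates, 0 on live plates (500 unadjusted), 131 without the shallow experiments and 3 on MIP-GFP plates. The cause was not tested.

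The log2(CPM + 1) change of epithelial Hmga2, -3.49, was -3.72 with the cells the authors kept, -3.59 with the titles, without the conflicting plates and on live plates, -3.34 without 1 E18.5 live plate and -3.40 with at least 3 Epcam transcripts. Leaving out 1 experiment at a time gave -3.54 to -3.43 there and -10.04 to -9.51 in mesenchymal cells (-9.80). Among called differences and described slopes, signs turned for the Igf2bp3 difference of glucagon cells (0.11) and of cycling epithelial cells (-0.003) and for Hmgn3 in glucagon against epithelial cells (-0.38, against 1.32) and the epithelial Hmga2 slope (0.04), all on MIP-GFP plates. With the titles the glucagon slopes of Igf2bp1 (0.03) and Sall4 (0.0017) turned. Members with no called difference, or a shallow slope, turned as well. Examples are Igf2bp1 in cycling epithelial cells (0.36, -0.19 on MIP-GFP plates), Igf2bp1 and Igf2bp3 in insulin against epithelial cells (-0.18 and -0.14 with no replicate block), Igf2bp2 in glucagon against epithelial cells (-0.14 to 0.17), Hmga2 in epithelial against mesenchymal cells (-0.98 to 0.56), and the slopes of glucagon Igf2bp2 (-0.11 to 0.05), glucagon Hmga2 (-1.09 to 0.29), immune Hmga2 (-0.99 to 0.48) and immune Igf2bp2 (-0.23 to 0.10).

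Leaving out 1 experiment at a time gave 4342 to 5721 calls for epithelial against mesenchymal, 4327 to 5101 for glucagon against epithelial, 4133 to 5744 for insulin against epithelial and 2257 to 3191 for glucagon against insulin cells. It gave 3956 to 4979 for immune against mesenchymal, 4496 to 6211 for precursors, 4237 to 6137 for cycling epithelial and 973 to 1348 for cycling mesenchymal cells. Slopes gave 36 to 585 in mesenchymal (36 without EP16), 69 to 284 in epithelial, 87 to 307 in glucagon, 0 to 1112 in insulin (0 without EP16, 637 unadjusted) and 10 to 205 in immune cells. Live plates alone could not be run for the glucagon comparisons and the glucagon and insulin slopes. MIP-GFP plates alone could not be run for mesenchymal cells or for precursors against other epithelial cells. The authors' cells could not be run for mesenchymal cells or the immune slope. Depth limits Lin28b, Hmga1 and the glucagon cells of E18.5, where 3 transcripts are the floor.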

Other observations

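Acinar genes divide the other epithelial cells, and Hmga2 was compared across that split as a value only. Cells with at least 1% of their transcripts in acinar markers held 712.9 CPM of Hmga2 in EP12, 447.9 in EP14, 271.2 in EP10 and 312.7 in EP17. The remaining cells held 896.7, 545.3, 447.9 and 291.9 CPM. The acinar range was the lower of the pair in each of these experiments except EP17.

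The pseudogene row Hmga2-ps1 did not follow Hmga2. In mesenchymal cells it had 4 transcripts in EP11 and 5 at E18.5, where Hmga2 had 6294 and 2.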
